A study of Mus musculus with 3 samples.

Results

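The lymphatic cells of the mouse distal colon and anus were the 337 cells, of 37080 in all, whose deposited cell type name contains the word lymphatic. The name covered 1 of the authors' 29 clusters, and 63 of these cells came from day 0, 190 from day 7 and 84 from day 42. The study sequenced single cells with 10x Chromium 3′ chemistry, in which a unique molecular identifier (UMI) stands for 1 captured RNA molecule. All mice were C57Bl/6, bought at 6 weeks of age, with no transgene or deletion named in the labels. The day 0 library came from untreated mice with normal histology. The mice of day 7 (severe colitis) and of day 42 (recovered) had drunk 3% dextran sulfate sodium (DSS), which damages the colon's epithelium, for 6 days from day 0. Each day was 1 library made from the pooled tissue of 5 mice, so no spread between mice could be measured, no test between days was made, and every interval below covers counting error only. The untreated mice were also the only controls for both later days, so the comparisons of day 7 and of day 42 with day 0 share a library. Untreated mice were not sampled at a later day. Time and the age of the mice therefore cannot be told apart from DSS in these comparisons.

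Lymphatic vessels drain fluid, fats and immune cells from the gut wall. Their lining cells are endothelial cells kept apart from blood vessel cells by the transcription factor Prox1, and they grow under signals through the receptor encoded by Flt4 (VEGFR3). Blunt-ended lymphatic capillaries carry the hyaluronan receptor Lyve1 and secrete the chemokine Ccl21a, which draws dendritic cells and T cells into the vessel, while collecting vessels and their valves use factors such as Foxc2 and Gata2.

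The lymphatic cells were 0.571% of the day 0 library (exact Clopper-Pearson 95% interval 0.439% to 0.730%), 1.32% of the day 7 library (1.14% to 1.52%) and 0.720% of the day 42 library (0.575% to 0.891%). As a share of the lymphatic and endothelial cells together they were, in the order of the days, 38.7% (31.1% to 46.6%), 37.8% (33.6% to 42.3%) and 40.8% (34.0% to 47.8%), and these 3 intervals overlap. The lymphatic share of all cells was thus highest at day 7, where the number of endothelial cells was high too (100, 312 and 122 at days 0, 7 and 42). Among cells of no epithelial type the lymphatic share was 1.84%, 4.44% and 4.16% in the order of the days, so that day 42 lay near day 7 on that denominator. Tissue digestion and dead-cell removal come before these shares, and how many cells of each type were lost there was not measured. The libraries also differed in make-up. In the order of the days, colonocytes were 34.0%, 7.06% and 12.8% of the cells, keratinocytes 30.0%, 62.8% and 68.3%, and fibroblasts 13.0%, 2.20% and 1.90%. Whether the lymphatic cells of each day came from colon and anus in the same balance was not tested, for the shares or for the gene levels below.

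The lymphatic sums rest on different depth by day. The lymphatic cells held 204279 UMIs at day 0, 787663 at day 7 and 173608 at day 42, with medians of 2689, 3261.5 and 1735.5 UMIs per cell. The median share of mitochondrial UMIs was 5.04%, 4.88% and 5.87%. Levels are given as a gene's UMIs per 1000000 UMIs of the lymphatic cells of a library (CPM), and 3 UMIs over a library's lymphatic cells, the limit that a count of 0 allows, come to 14.7 CPM at day 0, 3.81 CPM at day 7 and 17.3 CPM at day 42. There were 139 barcodes found in more than 1 library, 4 of them borne by lymphatic cells.

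Lymphatic marker genes were present in all 3 libraries. The cell type name may rest on the same genes, so their presence is a description and no independent evidence for the name. Every one of the 337 cells held a UMI of at least 1 of 7 lymphatic markers, 327 held at least 3, and the median cell held 6. Ccl21a (GRCm38, chr4, 42772860 to 42773993, minus strand) stood at 16189 CPM at day 0, 29279 at day 7 and 15627 at day 42, against 0, 6.49 and 0 CPM in the endothelial cells. Its near-identical copies could share reads with it, so its level may hold theirs. Lyve1 (chr7, 110850607 to 110863239, minus strand) measured 3285, 4666 and 2938 CPM, and 88.9%, 95.3% and 72.6% of the cells held a UMI of it. Both genes were thus highest at day 7 and close to their day 0 level at day 42.

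Prox1 (chr1, 190118035 to 190170714, minus strand) measured 465 CPM at day 0, 568 at day 7 and 703 at day 42. Mmrn1 (chr6, 60924976 to 60989378, plus strand), which encodes the matrix glycoprotein multimerin-1, measured 3681, 3309 and 3704 CPM, with a UMI in 100%, 96.3% and 96.4% of the cells. Flt4 measured 901, 915 and 847 CPM. These 3 identity genes kept within a log2 ratio of 1 between every pair of days. Reln, which encodes the secreted protein reelin, did so too, at 930.1, 1093 and 968 CPM. Pdpn, the membrane glycoprotein podoplanin, was the exception, at 259, 325 and 138 CPM, a log2 ratio of -1.18 for day 42 against day 7.

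**Figure D1:**
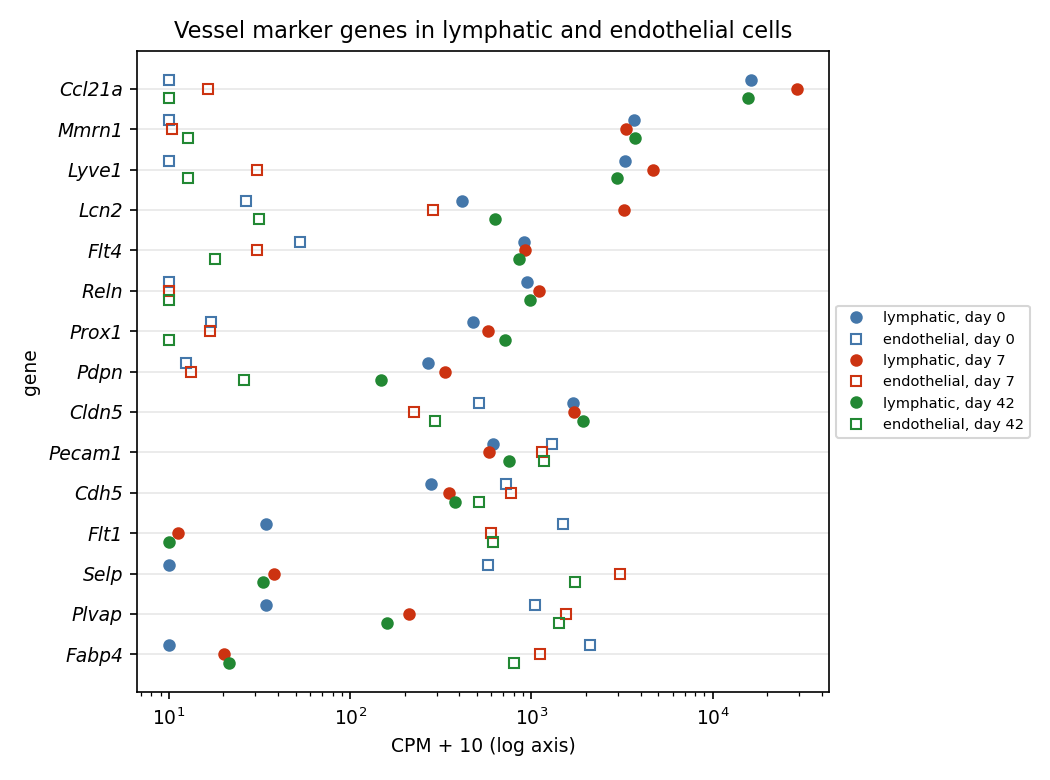
Levels of lymphatic, pan-endothelial and blood endothelial genes in the lymphatic cells (filled points) and the endothelial cells (open points) of each day, as CPM + 10 on a log axis. Ccl21a, Mmrn1 and Lyve1 lie apart between the classes at every day, and the lymphatic Ccl21a point of day 7 (29279 CPM) lies above those of day 0 (16189 CPM) and day 42 (15627 CPM).

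Endothelial cells served as the nearest other type. Each of the authors' cluster numbers carries 1 cell type name, and how clusters and names were made is not given in the sources used here. The contrast between the types is therefore given as a description, with no test. In all 3 libraries 254 of 6178 genes measured in the comparison were higher in lymphatic cells by a log2 ratio of CPM + 10 of at least 1 (4.11%), and 247 were lower (4%). The medians of the 3 within-library log2 ratios were highest for Ccl21a (10.66), Mmrn1 (8.32), Lyve1 (7.86), the secreted immune regulator gene Fgl2 (7.26), Reln (6.61), the transcription factor gene Maf (5.71), the Notch pathway gene Dtx1 (5.45) and Prox1 (5.10). Next came Prelp, Pard6g, Flt4, Cp, Igfbp5, Pdpn and Sema3d, between 5.06 and 4.43.

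The 10 genes lowest against endothelial cells included known blood vessel genes. Selp, the leukocyte adhesion molecule P-selectin, measured 0, 27.9 and 23 CPM in lymphatic cells at days 0, 7 and 42, and 562, 3051 and 1735 CPM in endothelial cells. Sele (E-selectin), the chemokine-binding receptor gene Ackr1 and the matrix gene Sparcl1 were at or near 0 in lymphatic cells of every day, at no more than 1.27 CPM. Flt1, the VEGF receptor of blood vessels, measured 24.5, 1.27 and 0 CPM in lymphatic cells against 1492, 586 and 604 CPM in endothelial cells. Pecam1, shared by both vessel types, was present in lymphatic cells at 607, 575 and 737 CPM, and the tight junction gene Cldn5 at 1689, 1706 and 1912 CPM, the latter above the 500.5, 216 and 282 CPM of the endothelial cells.

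Transcripts of other cells were present at levels that also varied by day. The keratin gene Krt14 of keratinocytes had a UMI in 25.4%, 72.1% and 51.2% of lymphatic cells at days 0, 7 and 42. In T cells, which should lack it, the shares were 15.5%, 68.6% and 59.5%. Depth differed by day as well. With each cell thinned to the same number of UMIs, the shares were 11.1%, 22.6% and 25% in lymphatic cells. In T cells the thinned shares were 3.20%, 31.4% and 29.8%. The level of Krt14 in lymphatic cells was 739, 877 and 1901 CPM, so by level day 42 was highest. The thinned lymphatic shares of days 7 and 42 lay close to each other. The summed level of 15 keratinocyte markers was 4347, 5123 and 5040.1 CPM, and that of 10 neutrophil markers was 44.1, 3013 and 438 CPM (16.6, 3106 and 325 CPM in the endothelial cells). S100a9 of neutrophils had a UMI in 0%, 34.2% and 9.52% of lymphatic cells, and red blood cell markers summed to 4.9, 185 and 0 CPM. Other lineage genes were found in few cells: the fibroblast gene Col1a2 had a UMI in 1.59%, 1.05% and 1.19% of lymphatic cells, and Ptprc, the leukocyte gene CD45, in 1.59%, 2.11% and 3.57%. Summed fibroblast markers were at 225, 156 and 230.4 CPM and summed T cell markers at 73.4, 41.9 and 63.4 CPM. Colonocyte markers summed to 622, 147 and 265 CPM, and 7 of the 8 that passed the minimum of 20 CPM at day 0 or day 7 had a log2 ratio of CPM + 10 of -1 or below for day 7 against day 0 (median -1.44). The part of such transcripts in the differences between days was not tested, other than by leaving out cells, as given below.

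At day 7, the lymphatic cells held more RNA of acute phase and antimicrobial genes than at day 0, and less of a set led by Igfbp5. Of 7098 genes that reached 20 CPM at day 0 or day 7, 494 were higher by a log2 ratio of at least 1 (6.96%) and 387 lower (5.45%), with a median over all genes of -0.01. A gene that passed this minimum only through the day at which it is high had to differ, so the share is also given over the 6058 genes with at least 20 CPM at day 0, where 148 (2.44%) were higher and 387 (6.39%) lower. A gene at 20 CPM rests on only a few UMIs at day 0 and at day 42, so counting error alone takes some genes past the fold, and the shares include them. The gene lists below are read against these shares. Beside the lists, the 10 highest and 10 lowest well-detected genes are named.

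**Figure D2:**
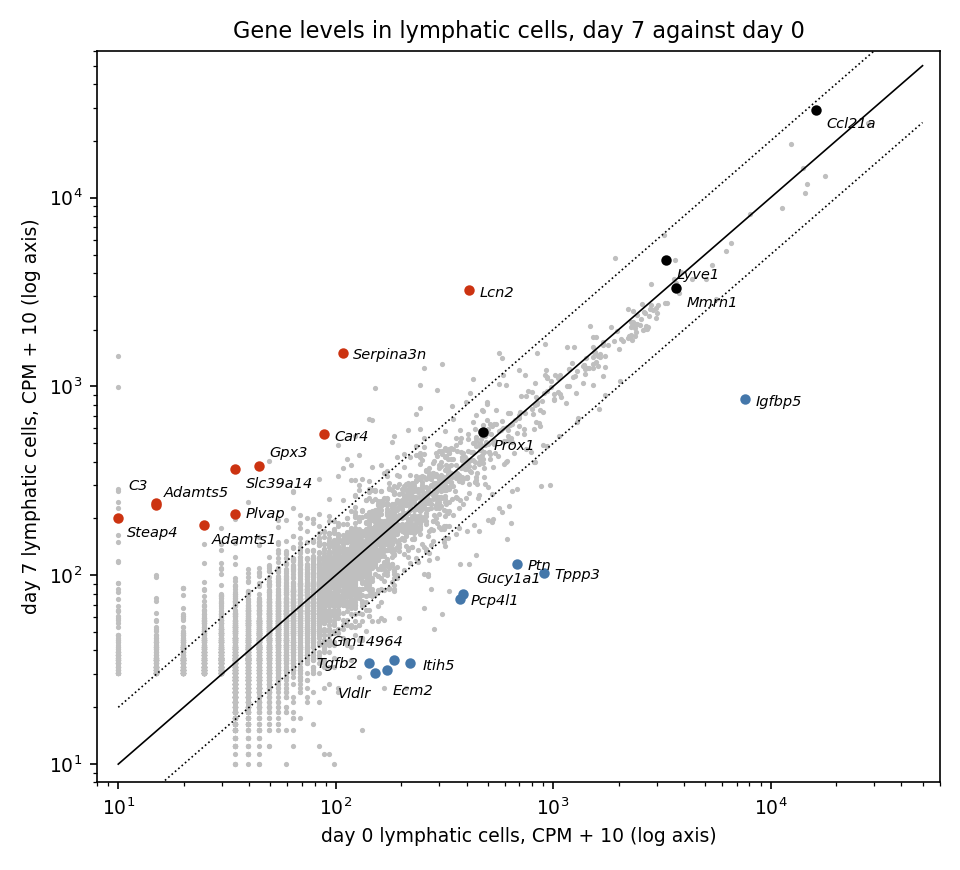
Level of each gene in the lymphatic cells at day 7 (y) against day 0 (x), as CPM + 10 on log axes, with the line of equal level and dotted lines at a log2 ratio of 1 either way. Red points are the 10 highest and blue points the 10 lowest named genes, black points are identity genes, with Igfbp5 below the line (7627 against 846 CPM) and Lcn2 above it (401 against 3221 CPM).

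Lcn2 (chr2, 32384633 to 32388252, minus strand) encodes lipocalin-2, which binds bacterial iron carriers, and it is among the markers by which these cells are known. Its level was 401 CPM in the day 0 cells (exact Poisson 95% interval 319 to 498), 3221 CPM in those of day 7 (3097 to 3349) and 616 CPM in those of day 42 (505 to 745). The day 7 level was 8.02 times that of day 0 (6.44 to 10.1), and the 3 intervals do not overlap. At day 42, 44.9% of its UMIs lay in 5 cells, and the median level per cell was 336, 2086 and 0 CPM in the order of the days. The day 42 cells with a UMI of Lyve1 stood at 423 CPM of Lcn2, beside 406 CPM in such cells of day 0, and the 23 without Lyve1 at 1119 CPM. A UMI was found in 65.1%, 87.9% and 47.6% of lymphatic cells, and after each cell was thinned to 500 UMIs in 19.0%, 61.1% and 20.2%. In T cells, which should lack it, the unthinned shares were 1.83%, 6.78% and 0.826%. The endothelial cells stood at 16.6, 275 and 21.5 CPM and the fibroblasts at 15.5, 269 and 11.7 CPM, so Lcn2 was higher at day 7 in each of the 3 types, and it was the level in lymphatic cells that was highest among them at every day.

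Serpina3n (chr12, 104406729 to 104414329, plus strand), a secreted inhibitor of proteases, measured 97.9 CPM at day 0, 1492 at day 7 and 149.8 at day 42. Its day 7 level was 15.2 times that of day 0 (9.82 to 25), and the share of cells with a UMI was 27.0%, 88.4% and 22.6%. The endothelial cells held next to none of it (0, 1.62 and 8.06 CPM), whereas fibroblasts held 102, 1192 and 323 CPM. Steap4 (chr5, 7960457 to 7982213, plus strand), a metal reductase of inflamed tissue, had no UMI at day 0 and stood at 192 CPM at day 7 and 17.3 CPM at day 42. Against the limit of 3 UMIs at day 0 it was at least 13.1-fold higher at day 7, when 43.2% of the cells held a UMI. Both genes were thus far lower at day 42 than at day 7, and closer to their day 0 level.

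The complement gene C3 measured 4.9 CPM at day 0, which was 1 UMI, then 232 CPM at day 7 and 144 CPM at day 42. The ratio of day 7 to day 0 was 47.5 with a counting interval of 8.41 to 1885, and 37.4% of the day 7 cells held a UMI. C3 therefore stood well above day 0 at both later days, unlike Steap4. Lrg1, a secreted glycoprotein that modulates TGF-beta signalling in vessels, measured 235, 1014 and 386 CPM. The copper-carrying oxidase gene Cp measured 573, 1413 and 1019.5 CPM, and Lbp, which encodes the binding protein for bacterial lipopolysaccharide, 553, 1498 and 679.7 CPM. For all 3 the day 7 level was the highest and the day 42 level lay between the others.

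In the list of acute phase and antimicrobial genes, 22 were listed and 17 passed the minimum, 11 of them only through day 7. The 6 members with at least 20 CPM at day 0 (Lcn2, Lrg1, Cp, Lbp, Serpina3n and Nfkbiz) were all past the fold and higher at day 7, with a median log2 ratio of 1.74, beside -0.12 over all genes with that level at day 0. The median of the 17 was 2.27 in lymphatic cells and 1.83 in endothelial cells, and 2.06 in lymphatic cells with genes absent at day 0 set at their bound. The list had been chosen with earlier results of these data known, so its direction is no independent evidence. Between day 42 and day 7, 13 of 18 members were lower and none higher, with a median of -1.67 (5.62% of all genes were lower in that comparison and 6.13% higher). At day 42 against day 0, 10 members passed the minimum with a median of 0.76, and the 4 past the fold, all higher, had passed it through day 42 alone. Of the 6 with at least 20 CPM at day 0, none was past the fold at day 42 (median 0.59), where 2.84% of all genes of that level were higher.

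Part of that list rested on very few cells. S100a8 and S100a9, subunits of the neutrophil protein calprotectin, stood at 0 and 0 CPM at day 0 and at 984 and 1432 CPM at day 7, with 93.5% of the UMIs of each in 5 cells. Without the 4 day 7 cells that drew more than 1% of their UMIs from 10 markers of other lineages, the levels were 78.2 and 106 CPM. Wfdc17 went from 217 to 19.5 CPM and Hp, haptoglobin, from 38.1 to 2.61 CPM when those cells were left out. Lcn2 (3231 CPM) and Lrg1 (1015 CPM) were as high without them. The chemokine genes Ccl2 (0, 187 and 5.76 CPM) and Ccl7 (0, 108 and 5.76 CPM) had 98% and 96.5% of their day 7 UMIs in 5 cells, and Ccl2 kept 191.5 CPM without the cells of mixed lineage.

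**Figure D3:**
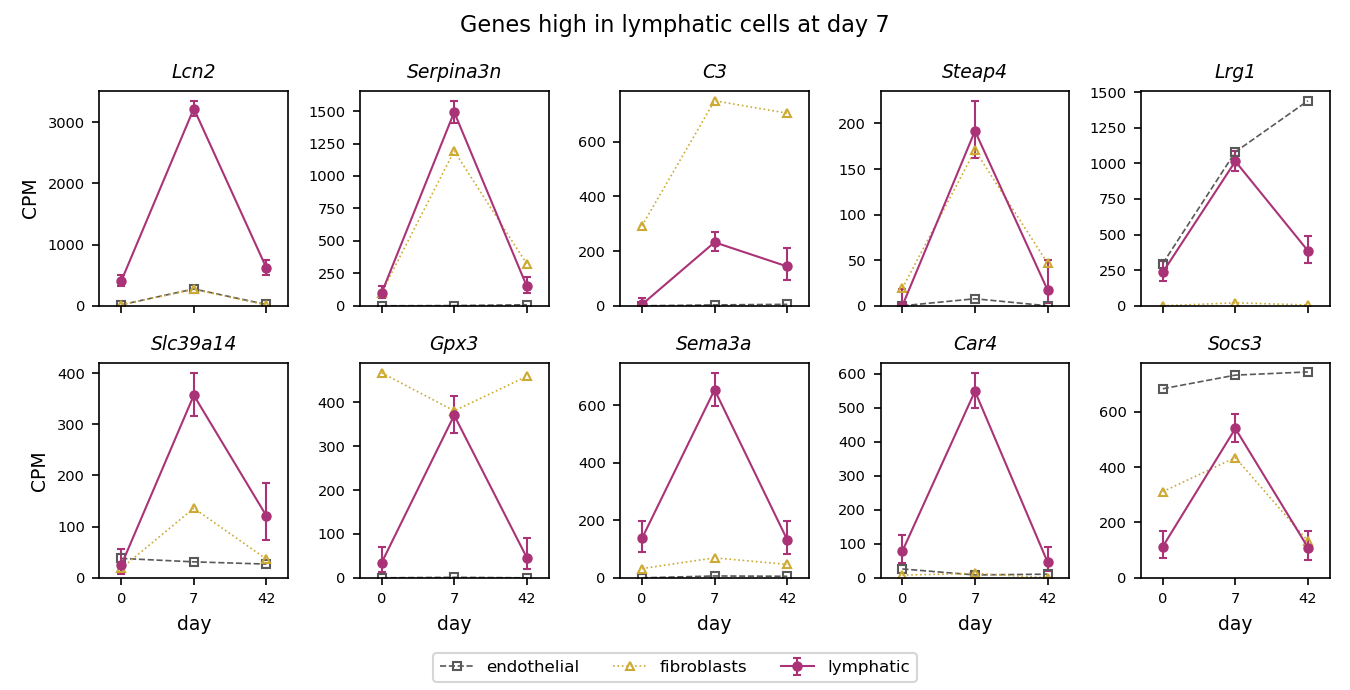
Levels of 10 genes higher at day 7 in lymphatic cells, as CPM by day, with exact Poisson 95% intervals for the lymphatic cells and the endothelial cells and fibroblasts beside them. At day 42 in lymphatic cells, Gpx3 and Sema3a lie near their day 0 level and Car4 lies under it. Serpina3n (149.8 against 97.9 CPM) and Lcn2 (616 against 401 CPM) lie above it in like measure, and C3 (144 against 4.9 CPM) lies far above. For Lcn2 the median level per cell was 336 CPM at day 0 and 0 CPM at day 42.

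The starts of 3 of these genes are shown: Lcn2 as the most abundant, Serpina3n as high at day 7 yet next to absent from endothelial cells, and Steap4 as having no UMI at day 0. Each is the RefSeq window of 250 bases before to 50 bases after the gene's start (GRCm38.p6), 5′ to 3′ on the gene's strand, with matches to the searched motifs in capitals. Lcn2 lies at chr2:32387690-32387989 (minus strand), Serpina3n at chr12:104406458-104406757 (plus strand) and Steap4 at chr5:7960222-7960521 (plus strand). RefSeq and GENCODE differ in the start of Lcn2: the RefSeq window lies inside the GENCODE gene given above, downstream of its start at 32388252.
Lcn2: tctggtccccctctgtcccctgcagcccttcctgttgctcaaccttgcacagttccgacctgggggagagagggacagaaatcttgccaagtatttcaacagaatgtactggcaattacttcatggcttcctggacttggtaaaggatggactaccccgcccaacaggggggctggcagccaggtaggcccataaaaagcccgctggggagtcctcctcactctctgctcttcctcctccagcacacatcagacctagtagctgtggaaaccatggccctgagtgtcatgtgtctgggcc
Serpina3n: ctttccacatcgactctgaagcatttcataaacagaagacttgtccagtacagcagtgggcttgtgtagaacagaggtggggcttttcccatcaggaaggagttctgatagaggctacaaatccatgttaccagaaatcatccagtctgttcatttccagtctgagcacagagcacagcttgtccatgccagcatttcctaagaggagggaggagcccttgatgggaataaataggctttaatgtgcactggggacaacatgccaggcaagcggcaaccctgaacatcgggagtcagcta
Steap4: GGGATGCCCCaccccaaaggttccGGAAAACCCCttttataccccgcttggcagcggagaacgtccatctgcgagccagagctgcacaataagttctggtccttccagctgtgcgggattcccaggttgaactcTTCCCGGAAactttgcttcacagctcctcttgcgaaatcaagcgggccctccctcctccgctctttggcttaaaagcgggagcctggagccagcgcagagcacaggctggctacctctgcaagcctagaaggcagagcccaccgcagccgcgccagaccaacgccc
The motifs searched on both strands were the STAT element TTCNNNGAA, which reads the same on both, and the consensus of the NF-kB element, and in Steap4 no match of one overlapped a match of the other. Of the 17 list members that passed the minimum, 11 had a window, and Steap4 was the only one with a match to either motif. Of 32851 windows of the same length, 8.30% held the STAT letters, 8.46% the NF-kB consensus and 16.1% either one. A match describes letters and no binding, and no match says only that the letters are not in this window.

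Other genes among the 10 highest encode secreted or surface proteins. Adamts5, a protease that cleaves the matrix proteoglycans aggrecan and versican, measured 4.9, 225 and 63.4 CPM. The related protease gene Adamts1 measured 14.7, 175 and 138 CPM. Slc39a14, a transporter of zinc and iron, measured 24.5, 357 and 121 CPM. All 3 were still above day 0 at day 42, with ratios of 12.9 (1.88 to 557) for Adamts5, which had 1 UMI at day 0, 9.41 (2.86 to 48.8) for Adamts1 and 4.94 (1.81 to 16.8) for Slc39a14. In endothelial cells Slc39a14 stood at 38, 31.2 and 26.9 CPM.

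Gpx3, the secreted glutathione peroxidase, measured 34.3 CPM at day 0, 371 at day 7 and 46.1 at day 42. Car4, a carbonic anhydrase anchored at the cell surface that also marks some blood capillaries, measured 78.3, 548 and 46.1 CPM, and its endothelial levels were 26.1, 8.52 and 10.7 CPM. Plvap, which forms the diaphragms of endothelial openings, measured 24.5, 202 and 149.8 CPM, far under the 1039, 1542 and 1413 CPM of the endothelial cells. Gpx3 and Car4 were thus high at day 7 alone of the 3 days, while Plvap stayed high at day 42. Sema3a, a guidance molecule that lymphatic vessels use in forming valves, measured 137, 654 and 132 CPM in lymphatic cells and at most 6.49 CPM in endothelial cells.

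The lymphatic cells also held more RNA of antigen presentation genes at both later days. Of 20 listed, 14 passed the minimum at day 7 against day 0 and 11 were higher and none lower, with a median log2 ratio of 1.34 (9 and 1.14 with genes absent at day 0 set at their bound). Among the 10 with at least 20 CPM at day 0, 7 were higher (median 1.14). The median in endothelial cells was -0.11, and the difference between the types was not tested. At day 42 against day 0, 10 of 14 were higher and none lower with a median of 1.53 (0.35 in endothelial cells), or 7 higher with a median of 0.96 with the 3 genes absent at day 0 set at their bound, where 8.59% of all 7227 genes were higher and 7.28% lower. Of the 10 with at least 20 CPM at day 0, 6 were higher at day 42 (median 1.08), while of all 6058 genes of that level 2.84% were higher and 8.68% lower, with a median of -0.06.

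B2m (chr2, 122147686 to 122153083, plus strand), the light chain of MHC class I, measured 416 CPM at day 0, 1092 at day 7 and 1354 at day 42. Its day 42 level was 3.25 times that of day 0 (2.53 to 4.22). The class I heavy chain gene H2-K1 measured 406, 919 and 1244 CPM. Both genes were slightly higher at day 42 than at day 7, with ratios of 1.24 (1.07 to 1.43) and 1.35 (1.16 to 1.58), and in endothelial cells both were high from day 0 on, B2m at 1020.0, 1007 and 1348 CPM and H2-K1 at 1188, 1010.2 and 1912 CPM. The proteasome subunit gene Psmb8 measured 73.4, 201 and 161 CPM, and the peptide transporter gene Tap1 14.7, 58.4 and 74.9 CPM. H2-Q7 (24.5, 138 and 253 CPM) and H2-Q6 (29.4, 29.2 and 161 CPM) belong to a family of near-identical genes, so which of them the reads came from is uncertain. Of 15 interferon response genes, 4 were higher and 1 lower at day 7 (median 0.66), and 6 were higher and 1 lower at day 42 (median 0.55). Among the 13 with at least 20 CPM at day 0, 2 were higher and 1 lower at day 7 (median 0.28), and 4 were higher and 1 lower at day 42 (median 0.55).

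NF-kB and TNF response genes were higher in part. Of 16 that passed the minimum at day 7 against day 0, 8 were higher and 1 lower (median 1.11, or 1.07 with absent genes at their bound, and 0.40 in endothelial cells), and among the 11 with at least 20 CPM at day 0, 4 were higher and 1 lower (median 0.76). Of these 4, Socs3 and Ier3 also belong to the list of dissociation genes given below. Among the others of the 8, Ccl2 lay in few cells, as given above. Cxcl2 went from 277 to 142 CPM at day 7 when the cells of mixed lineage were left out. Nfkbia, the inhibitor that NF-kB itself induces, measured 225 CPM at day 0, 702 at day 7 and 242 at day 42. Socs3, a feedback inhibitor of cytokine signalling, measured 113, 539.6 and 109 CPM, beside 683, 732 and 744 CPM in endothelial cells. The adhesion molecule gene Icam1 measured 53.8, 269 and 115 CPM. All 3 were highest at day 7. At day 42 against day 7, 8 members of the list were lower and none higher, with a median of -1.04.

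A list of genes known to respond to the dissociation of tissue, immediate early and heat shock genes among them, differed by day as well. Of its 20 genes, 12 were higher at day 7 than at day 0 and none lower in lymphatic cells (median 1.24), while the median in endothelial cells was -1.27. Fos measured 245 CPM at day 0, 1237 at day 7 and 524 at day 42 in lymphatic cells, and 3831, 1231 and 2307 CPM in endothelial cells. Egr1 measured 235, 588 and 276 CPM in lymphatic cells, and 4217, 733 and 991 CPM in endothelial cells. The part of tissue handling in these levels and in those of the NF-kB list was not tested. Complement and coagulation genes had 8 of 14 members higher and 1 lower at day 7 (median 1.28, or 6 higher with a median of 0.94 with absent genes at their bound), and 3 higher and 1 lower among the 8 with at least 20 CPM at day 0 (median 0.35).

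Among the 10 lowest genes at day 7 by the naming rule, Igfbp5 (chr1, 72857932 to 72874884, minus strand), which encodes a secreted binding protein of insulin-like growth factors, was the most abundant at day 0. It measured 7627 CPM at day 0 (7253 to 8015), 846 at day 7 and 1089 at day 42. The day 7 level was 0.111 times that of day 0 (0.101 to 0.121) and the day 42 level 0.143 times (0.122 to 0.166), so the level at day 42 too was far under that of the untreated mice of day 0. A UMI was found in 100%, 55.8% and 46.4% of the cells, and after thinning in 92.1%, 25.8% and 32.1%. The endothelial cells held 7.12, 45.8 and 40.3 CPM and the fibroblasts 895, 3104 and 939.8 CPM, so in both of these types the gene was higher at day 7 than at day 0. In endothelial cells a UMI of it was found in 3 of 100, 17 of 312 and 3 of 122 cells, so their levels rest on few cells.

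Tppp3, a tubulin-binding protein gene, measured 901 CPM at day 0, 92.7 at day 7 and 265 at day 42. Ptn, the heparin-binding growth factor pleiotrophin, measured 676, 105 and 184 CPM. Vldlr, a lipoprotein receptor that also binds reelin, measured 142, 20.3 and 34.6 CPM. All 3 stayed below day 0 at day 42, with log2 ratios of -1.73, -1.82 and -1.77. Itih5, which encodes a hyaluronan-binding matrix protein, measured 210.5, 24.1 and 34.6 CPM, and it was low in endothelial cells at the later days too (491, 20.7 and 45.7 CPM).

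Other members of the 10 lowest stood closer to day 0 again at day 42. Gucy1a1, a subunit of the receptor for nitric oxide, measured 377, 69.8 and 213 CPM. The growth factor gene Tgfb2 measured 132, 24.1 and 109 CPM. Gm14964, a predicted gene, measured 176, 25.4 and 196 CPM. Ecm2, an extracellular matrix protein gene (162, 21.6 and 80.6 CPM), and Pcp4l1 (362, 64.7 and 138 CPM) lay between. The day 7 level was the lowest of the 3 days for each of these 5 genes.

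**Figure D4:**
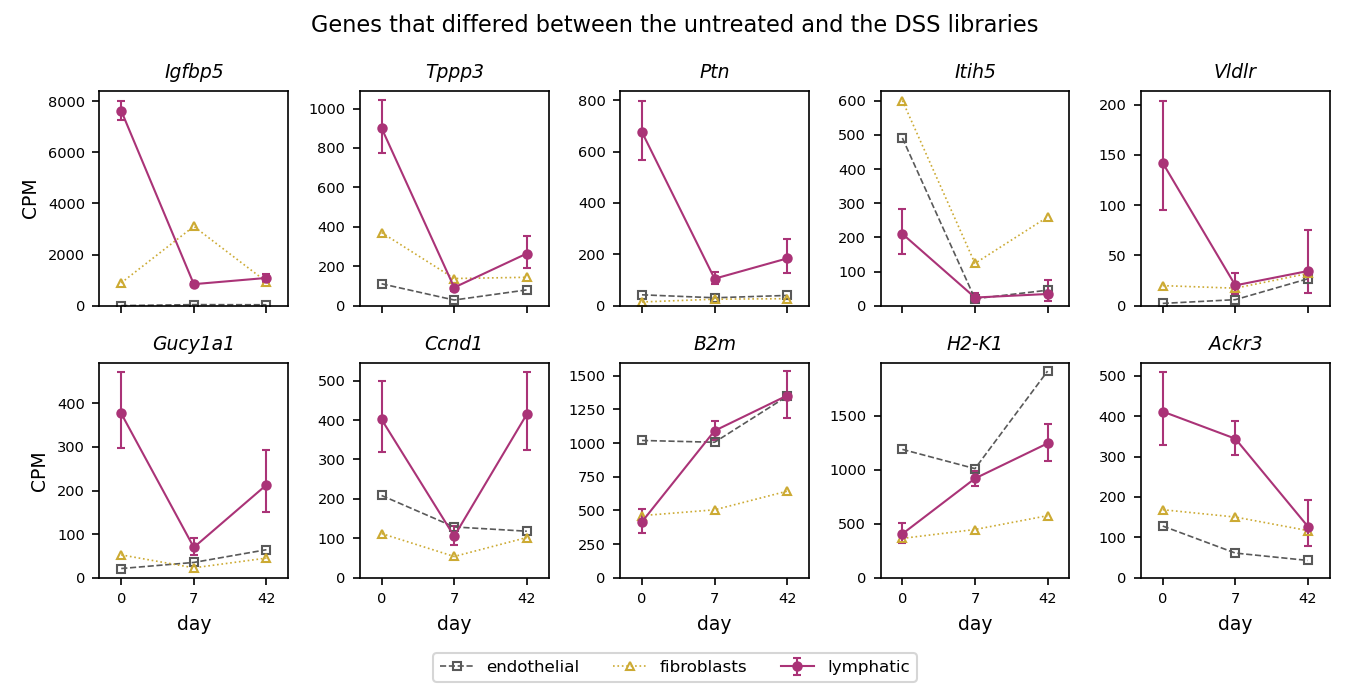
Levels of genes lower at day 7 or day 42, with B2m and H2-K1 for contrast, as CPM by day in lymphatic cells with exact Poisson 95% intervals and in endothelial cells and fibroblasts. Igfbp5 stands at 7627 CPM at day 0 and under 1100 CPM at both later days in lymphatic cells, and Ackr3 is low at day 42.

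Lists of lymphatic identity and function had members on both sides at day 7 against day 0. Of 22 lymphatic identity genes, all with at least 20 CPM at day 0, 3 were higher and 2 lower (median 0.11), beside 2.44% and 6.39% of all genes of that level. Of 20 pan-endothelial genes, 2 were higher and none lower (median 0.22). The capillary list had 1 of 7 lower and none higher (median 0.02) and the collecting and valve list 2 of 12 higher and 1 lower (median -0.11). Endothelial junction genes had none of 12 higher and 1 lower (median 0.04). In the list of VEGF-C, angiopoietin and lymphangiogenic signalling, 2 of 16 were higher and 2 lower (median 0.12). Over the members with at least 20 CPM at day 0, the pan-endothelial list had 1 of 19 higher and none lower (median 0.20), the collecting and valve list 1 of 10 higher and 1 lower (median -0.27) and the lymphangiogenic list 1 of 14 higher and 2 lower (median 0.03). At day 42 against day 0, the collecting and valve list had 4 of 12 higher and none lower (median 0.26), 2 of the 12 having passed the minimum through day 42 alone, and 2 of 10 higher and none lower among those with at least 20 CPM at day 0 (median 0.20). Its median for day 42 against day 7 was 0.58, and -0.02 in endothelial cells, with 2 of 13 higher and none lower. Among transcription factors, none of 28 was higher and 4 were lower (median -0.23), and these included Sox18, a factor upstream of Prox1, at 147, 47 and 161 CPM, and Lmo2 at 494, 187 and 294 CPM.

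Chemokines and their scavenging receptors split, with 4 of 13 higher and 3 lower at day 7 (median 0.57), the 4 higher ones having passed the minimum through day 7 alone. Among the 9 with at least 20 CPM at day 0, none was higher and 3 were lower at day 7 (median -0.25), while Ccl21a, with a log2 ratio of 0.85, stayed under the fold. Il7, the survival cytokine of T cells and lymphatic vessels, measured 176, 72.4 and 104 CPM. The scavenger of inflammatory chemokines, Ackr2, measured 166, 299.6 and 92.2 CPM. Ackr3, which removes CXCL12 and adrenomedullin, measured 411, 344 and 127 CPM, a log2 ratio of -1.62 for day 42 against day 0. Ackr2 was thus highest at day 7, while Ackr3 was low at day 42 alone. Stab1, a scavenger and adhesion receptor, measured 206, 581 and 599 CPM, so it was as high at day 42 as at day 7.

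Proliferation genes gave no clear picture. Of 17 that passed the minimum, 7 were higher at day 7 and none lower, but 9 of the 17 passed through day 7 alone, and of the 8 with at least 20 CPM at day 0 none was past the fold in either direction (median 0.34). Mki67, a marker of dividing cells, measured 0, 81.3 and 40.3 CPM, and all of its day 7 UMIs lay in 5 cells. In the list of lipid uptake and handling, 2 of 15 were higher and 4 lower (median -0.17), and in hypoxia and glycolysis 1 of 17 was higher and 2 were lower (median 0.55). Hif1a, the oxygen-regulated transcription factor, was the higher one at 93, 328 and 104 CPM. Of 24 basement membrane and matrix genes, 7 were higher and 1 lower (median 0.08).

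**Figure D5:**
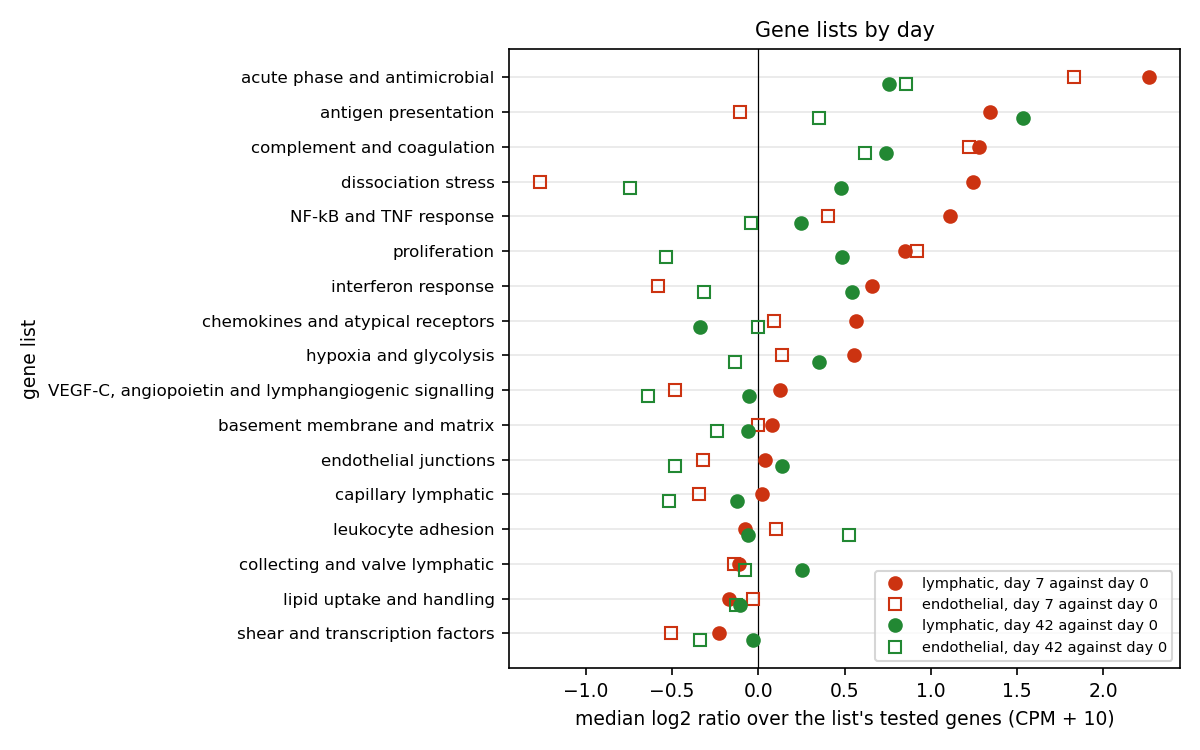
Median log2 ratio of CPM + 10 of each gene list, for day 7 and for day 42 each against day 0, in lymphatic and in endothelial cells. Acute phase and antimicrobial genes have a median of 2.27 at day 7 and 0.76 at day 42 in lymphatic cells, and antigen presentation genes 1.34 and 1.53.

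At day 42 against day 0, besides the class I genes, the 10 highest genes included Fn1, the matrix protein fibronectin, at 58.7 CPM at day 0, 168 at day 7 and 311 at day 42. Akap12, a scaffold for protein kinase A, measured 49, 185 and 259 CPM in lymphatic cells, and 73.5, 53.5 and 18.8 CPM in endothelial cells. Id3, an inhibitor of transcription factors downstream of BMP signalling, measured 181, 413 and 582 CPM. Each of these 3 was higher at both later days than at day 0, and the ratio of day 42 to day 7 was 1.86 (1.33 to 2.57) for Fn1, 1.41 (1.12 to 1.77) for Id3 and, with an interval that includes 1, 1.4 (0.978 to 1.97) for Akap12. Cpne2 (83.2, 139.7 and 334 CPM) and the Polycomb gene Bmi1 (49, 76.2 and 179 CPM) were highest at day 42. Plvap and Slc39a14, given above, completed the highest genes.

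Among the 10 lowest at day 42, Igfbp5, Itih5, Ptn, Vldlr and Tppp3 were also among the 10 lowest at day 7. The other 5 were Nov, a matricellular protein gene (122, 60.9 and 17.3 CPM), Flii (117, 72.4 and 23 CPM), Cdc42ep2 (137, 67.3 and 28.8 CPM), Dock6 (157, 73.6 and 40.3 CPM) and the integrin subunit gene Itgav (152, 122 and 40.3 CPM). Each of the 5 was lowest at day 42. With fewer UMIs at day 42, their levels rest on few molecules: 17.3 CPM is 3 UMIs there.

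Between day 42 and day 7, the 10 lowest genes were all highest at day 7 of the 3 days. Those described above were Car4 (log2 ratio -3.32), Serpina3n (-3.23), Steap4 (-2.89), Gpx3 (-2.76), Lcn2 (-2.37) and Sema3a (-2.22). The other 4 were the signalling gene Rasd1 (24.5, 116 and 0 CPM), the growth factor gene Pgf (19.6, 136 and 5.76 CPM), Itih3 (19.6, 126 and 11.5 CPM) and Pglyrp1, which encodes a peptidoglycan recognition protein (108, 373 and 63.4 CPM). Over all 7239 genes of this comparison, 444 were higher and 407 lower, and over the 6344 with at least 20 CPM at day 7, 144 (2.27%) were higher and 407 (6.42%) lower. The 10 highest included Ccnd1, cyclin D1, at 401, 105 and 415 CPM, and the serine protease gene Prss23 at 573, 207 and 755 CPM. Sox18, Gm14964, Pkhd1l1 (245, 57.1 and 190.1 CPM) and Mpp7 (264, 74.9 and 242 CPM) were likewise low at day 7 alone. H2-Q6, Cd24a (93, 54.6 and 230.4 CPM), Kremen1 (68.5, 27.9 and 109 CPM) and Cep85l (58.7, 31.7 and 115 CPM) made up the rest.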

How the data were processed

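Single-cell RNA sequencing libraries of pooled distal colon and anus from 5 mice per day (1 library for each of days 0, 7 and 42) gave 37080 cells and 31053 genes. The values deposited by the authors are whole-number counts of UMIs per gene and cell, with no normalization. The authors' size factor is a ratio, each cell's total divided by the geometric mean of all totals (5283.43), and it was not used for levels. Cell Ranger 3.0.2 and the build mm10 are named in the submitters' processing notes. Per the labels' protocols, tissue was digested with trypsin-EDTA, cleared of dead cells and filtered. The filter on cells, the method of cell typing and any removal of doublets are not given in the sources used here, and no doublet caller was run. The smallest total of any cell was 501 UMIs at day 0 and 500 at the later days.

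The deposited cell type names and days were taken as given, and UMIs were summed over the lymphatic cells of a library. Days were compared as the log2 ratio of CPM + 10 among genes that reached 20 CPM in at least 1 of the libraries compared, where past the fold means a log2 ratio of at least 1 in size. No count model or test was used, since each day is 1 library. Cell shares have exact Clopper-Pearson 95% intervals and sums exact Poisson 95% intervals, which cover counting error only. The named genes were, for each pair of days, the 10 highest and 10 lowest ratios of the genes that reached 100 CPM on a compared day, with a UMI in at least 10% of the cells of the higher library and at most 50% of its UMIs in 5 cells, and for the contrast with endothelial cells the 15 highest and 10 lowest medians. Left out were immunoglobulin, haemoglobin, ribosomal protein, mitochondrial and Y-linked genes and Xist. The markers and members of 30 lists (463 genes, 462 in the file) were named as well, and Sox18, Lmo2 and others singled out from them were chosen after their values were seen. The members and lists were chosen with earlier results of these data known. Gene coordinates are from GENCODE M21 (GRCm38), in which 30934 identifiers (99.6%) were found and 30468 had the same symbol, and promoter windows are from RefSeq. The steps were tested on simulated data. Sums, intervals and plots were made with scipy 1.17.1, pandas 2.3.3, matplotlib 3.10.9 and numpy 2.4.6 under Python 3.11.15.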

Additional observations from a re-analysis of the deposited data

Results flagged for a closer look

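Igfbp5 differed in opposite directions between the vessel types, lower in lymphatic cells and higher in endothelial cells at both later days. The lymphatic minus the endothelial log2 ratio was -4.86 for day 7 and -4.35 for day 42, each against day 0. The endothelial side rests on few cells, with 3 UMIs in 3 of 100 cells at day 0, 113 UMIs in 17 of 312 at day 7 and 15 UMIs in 3 of 122 at day 42, and the share of cells with a UMI was 3%, 5.45% and 2.46%. Vldlr, at day 42 against day 0, was lower in lymphatic cells and higher in endothelial cells, with a difference of -3.34, its endothelial counts being 1 UMI at day 0 and 10 at day 42. Akap12, at day 42 against day 0, was higher in lymphatic cells and lower in endothelial cells, with a difference of 3.73. These differences between the types were not tested, since each rests on 1 library per day.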

How the results depend on the processing

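Of the named genes' values under the alternatives, 247 stayed within their counting interval and 17 moved for day 7 against day 0, 260 and 15 for day 42 against day 0, 246 and 17 for day 42 against day 7, and 233 and 27 against endothelial cells. Cep85l alone reversed, to -0.12 at day 42 against day 7 with cells thinned to 500 UMIs. Counts past the fold were less stable. For day 7 against day 0, 735 genes were higher and 700 lower with a pseudocount of 1 CPM, and 601 and 638 with mean CPM per cell. They were 233 and 186 with a minimum of 50 CPM, 1575 and 71 without each gene's 5 richest cells, and 2237 and 2264 after thinning. For day 42 against day 0, they were 1027 and 848 (pseudocount 1), 924 and 791 (mean per cell), 299 and 187 (minimum of 50 CPM) and 2706 and 2264 (thinned). For day 42 against day 7, they were 766 and 653, 198 and 165 (minimum of 50 CPM), 50 and 1578 (without 5 richest) and 1889 and 1844 (thinned). Against endothelial cells, 181 were higher and 161 lower with a minimum of 50 CPM. Leaving out 5 cells removes a larger part of the smaller libraries by construction: the share of calls that were higher went from 56.1% to 95.7% at day 7 against day 0, from 52.2% to 3.07% at day 42 against day 7 and from 50.7% to 37.1% against endothelial cells. Median-of-ratios scaling gave 42.0% at day 42 against day 7. A filter of 1000 UMIs and 500 genes per cell with no more than 20% of mitochondrial UMIs gave lymphatic shares of 0.766% at day 0, 1.53% at day 7 and 0.706% at day 42, so the order of days 0 and 42 turned, while day 7 remained highest. Calling cells by 3 of 7 markers gave 1.74% of all cells and 44.6% of vessel cells at day 7. No paired analysis was possible because each day is 1 library. The day 0 and day 42 sums limit genes under about 20 CPM, which are only a few UMIs there. Thinning, shared barcodes and the cut on deep cells were added after seeing the data.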

Other observations

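The lymphatic cells were not uniform in Lyve1. Over the 3 libraries, 298 cells held a UMI of it (median 2868 UMIs per cell) and 39 did not (median 1480 UMIs), 7 of the latter from day 0, 9 from day 7 and 23 from day 42. Since these cells were set apart by Lyve1 and differ in depth, the values that follow are a description. Ccl21a stood at 17089 CPM in cells with Lyve1 and 1675 CPM in those without at day 0, at 30444 and 776 CPM at day 7, and at 20679 and 2507 CPM at day 42. Prox1 was present in both, at 463 and 503 CPM, 571 and 485 CPM, and 646 and 849.5 CPM in the order of the days. Of the 14 genes listed for collecting vessels and valves, 5 were higher in the cells without Lyve1 at each day (Foxp2, Gata2, Cldn11, Gja4 and Lama5), 1 was lower at each day (Gja1) and 8 kept no single order (Foxc2, Fn1, Itga9, Nfatc1, Piezo1, Esam, Neo1 and Foxp1). How many of all genes keep such an order was not counted, so these counts cannot be read as particular to the list. Several intervals without Lyve1 include the level with it, among them Gata2 at day 0 (2.12 to 467 CPM) and Cldn11 at day 42 (22.6 to 212 CPM). Foxp2 stood with and without Lyve1 at 10.4 and 168 CPM, 52.9 and 388 CPM, and 63.8 and 207 CPM by day, and Gata2 at 57.2 and 83.8 CPM, 39.6 and 226 CPM, and 55.8 and 124 CPM. The values without Lyve1 rest on 2, 12 and 10 UMIs of Foxp2, those of day 0 in 1 of 7 cells, and on 1, 7 and 6 UMIs of Gata2. Lama5 without Lyve1 rests on 1, 6 and 1 UMIs, with an interval at day 42 (20.7 CPM, 0.52 to 115) that includes the 7.98 CPM of the cells with Lyve1, and Cldn11 at day 0 on 1 UMI. The 4 UMIs of Cldn11 and 7 of Gja4 in day 7 cells without Lyve1 lay in 1 of the 9 cells. Gja1 stood at 177 and 0 CPM, 284 and 97 CPM, and 279 and 228 CPM. Itga9 stood at 182 and 83.8 CPM, 123 and 226 CPM, and 144 and 124 CPM. Foxc2 stood at 46.8 and 168 CPM at day 0 and at 46.3 and 291 CPM at day 7, but at 63.8 and 41.4 CPM at day 42. Fn1 stood at 62.4 and 0 CPM at day 0, then at 165 and 226 CPM, and at 239 and 497 CPM at day 42.

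Outside the annotated lymphatic cells, 82 cells held UMIs of at least 3 of the 7 lymphatic markers, 8 at day 0, 63 at day 7 and 11 at day 42. Of these, 67 were named keratinocytes, 56 of them at day 7, and 1 was named an endothelial cell. The day 7 library held 9035 keratinocytes, with a median of 11481 UMIs, and 312 endothelial cells, with a median of 6752.5 UMIs. The counts by type are thus not on the same footing.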
